A study of Mus musculus with 8 samples.

Results

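The B cell receptor signalling genes described here were 9 genes chosen by name: Cd79a, Cd79b, Cd22, Cd72, Blk, Blnk, Syk, Lyn and Cd81. They were taken from the 21755 protein-coding genes of GENCODE M21 on the autosomes and X, each as its gene body with 10 kb on either side in the mouse build mm10. Methylation at CpGs (5mC) comes from WGoxBS, oxidative bisulfite sequencing of the whole genome, where DNA is oxidised before bisulfite so that hydroxymethylcytosine reads as unmodified. The cells were resting CD43- B cells and naive CD4+ T cells (sorted as CD62Lhi, CD44lo and CD25-) from the spleens of C57BL/6J mice aged 6 to 8 weeks. The labels list 8 samples in 4 groups, B cells and T cells from females and from males, and each sample was cells pooled from several mice. The 2 samples of each group point to a single file, whose name carries the number of only 1 of them. Whether it holds 1 sample or both joined is not known, so a group was treated as 1 library. Each cell type thus had n = 2 libraries (1 female and 1 male), and a p-value below rests on these 4 libraries only. It weighs a difference against counting error and a spread estimated mostly over all regions of a kind together. It thus says little about how far the single region varied between libraries.

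The B cell receptor is a membrane immunoglobulin that signals through its partners Cd79a and Cd79b. On antigen binding, the Src family kinases Lyn and Blk phosphorylate the tails of these partners, the kinase Syk docks there, and Syk phosphorylates the adaptor Blnk, which brings Btk and Plcg2 to the membrane. Cd22 and Cd72 are inhibitory coreceptors that recruit the phosphatase encoded by Ptpn6, Lyn also serves this inhibitory arm, and Cd81 is a tetraspanin of the B cell coreceptor complex that many other cells carry as well. In mammalian cells most CpGs are methylated, and promoters and enhancers in use are usually local gaps in that methylation.

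The loci held 6016 CpGs in the reference, of which 5640 (93.8%) were listed in all 4 libraries, with 86.7% at Lyn and 98.9% at Cd81 as the extremes. The libraries held between 280919817 and 354634149 reads at CpGs, with a median of 14 to 17 reads at a listed autosomal CpG, and between 78.7% and 81.2% of the reads on the autosomes and X were methylated. Promoters of defining genes were low in the cells named on the labels: all 5 T cell markers (Cd3d, Cd3e, Cd3g, Cd247 and Cd4) were at 71.9% to 94.5% in B cells and at 0.805% to 9.53% in T cells. Of the 4 B cell markers, Ms4a1 and Fcrla were lower in B cells past the threshold, whereas Pax5 and Ebf1 were at or below 17.4% in every library. Pax5 (-13.4 points, B minus T) and Ebf1 (-3.49) were lower in B cells on adjusted p but under the minimum difference of 20 points. None of the 5 myeloid, 2 erythroid and 2 plasma cell markers was called, and of the 4 natural killer cell markers only Nkg7 was, with B cells higher by 21.9 points. Among these, Lyz2 (-16.8 points, B minus T), Itgam (13.0) and Prf1 (12.8) passed the test on adjusted p but not the minimum difference of 20 points.

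The sequences below carry the differences that the results turn on. The promoters are the RefSeq stretches of 300 bases around a gene start in GRCm38.p6, which were given for 6 of the 9 genes and not for Cd79b, Blk and Lyn, and CpGs are in capitals. The Cd79a promoter (chr7:24897247-24897546, plus strand) spans the gene start. None of its 8 CpGs had a methylated read in either B cell library, and the mean level of a single CpG in T cells lay between 35.1% and 85.8%.
Cd79a promoter: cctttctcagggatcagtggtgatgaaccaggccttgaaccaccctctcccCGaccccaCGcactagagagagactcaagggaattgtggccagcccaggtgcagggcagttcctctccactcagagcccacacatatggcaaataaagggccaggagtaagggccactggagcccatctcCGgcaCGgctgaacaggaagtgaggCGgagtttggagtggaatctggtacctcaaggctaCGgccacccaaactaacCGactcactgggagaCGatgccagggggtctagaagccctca
The Cd22 promoter (chr7:30878979-30879278, minus strand) begins 1064 bases inside the outermost GENCODE start of the gene. Its 4 CpGs together were at 3.85% and 4.17% in the female and male B cell libraries and at 81.0% and 85.3% in the T cell libraries. These levels rest on only 24 to 58 reads per library, summed over the 4 CpGs.
Cd22 promoter: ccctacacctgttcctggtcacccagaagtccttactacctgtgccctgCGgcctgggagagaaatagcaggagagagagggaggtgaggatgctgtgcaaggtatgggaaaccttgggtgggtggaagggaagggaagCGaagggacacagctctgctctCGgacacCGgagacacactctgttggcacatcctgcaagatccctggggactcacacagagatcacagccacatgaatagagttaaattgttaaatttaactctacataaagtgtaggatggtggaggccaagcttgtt
Blnk is shown at 2 places, a stretch low in both cell types and the intron behind it. The RefSeq promoter (chr19:40994172-40994471, minus strand), which begins 64 bases inside the outermost start, was low in both cell types, with 7 CpGs at 0.73% and 3.64% in B cells and 7.36% and 4.37% in T cells. A window of 300 bases in the first intron (chr19:40993619-40993918, minus strand), within the 1-kb tile of the gene with the largest difference, had 6 CpGs at 1.09% and 3.19% in B cells and at 91.8% and 81.9% in T cells.
Blnk promoter: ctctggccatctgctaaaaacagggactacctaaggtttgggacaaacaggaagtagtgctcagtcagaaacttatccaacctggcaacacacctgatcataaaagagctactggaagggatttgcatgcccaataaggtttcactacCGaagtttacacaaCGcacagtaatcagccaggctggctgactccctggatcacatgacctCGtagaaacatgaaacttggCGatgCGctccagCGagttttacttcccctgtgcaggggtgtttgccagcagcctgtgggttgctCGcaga
Blnk intron window: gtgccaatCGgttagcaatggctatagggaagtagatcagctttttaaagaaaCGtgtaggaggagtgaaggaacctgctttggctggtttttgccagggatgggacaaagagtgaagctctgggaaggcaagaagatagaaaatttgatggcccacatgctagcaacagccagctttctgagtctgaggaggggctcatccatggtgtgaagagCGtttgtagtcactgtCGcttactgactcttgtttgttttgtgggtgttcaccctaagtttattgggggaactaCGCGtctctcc
For Cd79b the window lies past the 3′ end of the gene, in intergenic sequence (chr11:106310334-106310633, minus strand), where 6 CpGs were at 10.1% and 4.30% in B cells and at 93.8% and 88.8% in T cells. For Lyn it lies in an intron (chr4:3679434-3679733, plus strand), with 8 CpGs at 7.08% and 6.42% in B cells and at 70.2% and 69.3% in T cells. The Syk window is intronic and showed the opposite direction (chr13:52635013-52635312, plus strand), with 5 CpGs at 92.5% and 89.6% in B cells and at 19.3% and 27.3% in T cells, and 1 of the 5 reached 95% in T cells.
Cd79b window: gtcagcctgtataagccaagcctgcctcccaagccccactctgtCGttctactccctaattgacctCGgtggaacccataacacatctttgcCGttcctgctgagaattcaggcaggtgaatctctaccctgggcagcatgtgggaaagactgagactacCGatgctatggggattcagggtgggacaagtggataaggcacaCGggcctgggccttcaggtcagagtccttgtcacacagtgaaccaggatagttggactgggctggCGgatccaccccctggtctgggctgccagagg
Lyn window: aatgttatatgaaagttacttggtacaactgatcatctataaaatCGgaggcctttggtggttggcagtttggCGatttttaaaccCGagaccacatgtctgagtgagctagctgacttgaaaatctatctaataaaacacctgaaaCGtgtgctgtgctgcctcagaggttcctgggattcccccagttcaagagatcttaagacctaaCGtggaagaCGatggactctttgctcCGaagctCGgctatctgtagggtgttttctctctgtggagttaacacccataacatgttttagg
Syk window: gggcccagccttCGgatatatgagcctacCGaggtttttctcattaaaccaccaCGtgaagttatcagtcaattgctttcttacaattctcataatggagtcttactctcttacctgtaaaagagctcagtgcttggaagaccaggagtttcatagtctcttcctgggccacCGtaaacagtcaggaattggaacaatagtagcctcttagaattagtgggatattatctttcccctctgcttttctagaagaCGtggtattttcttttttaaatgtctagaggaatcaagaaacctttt
The Cd81 promoter (chr7:143052500-143052799, plus strand) is the contrast to these. It holds 23 CpGs, and its level was at most 2.04% in any library.
Cd81 promoter: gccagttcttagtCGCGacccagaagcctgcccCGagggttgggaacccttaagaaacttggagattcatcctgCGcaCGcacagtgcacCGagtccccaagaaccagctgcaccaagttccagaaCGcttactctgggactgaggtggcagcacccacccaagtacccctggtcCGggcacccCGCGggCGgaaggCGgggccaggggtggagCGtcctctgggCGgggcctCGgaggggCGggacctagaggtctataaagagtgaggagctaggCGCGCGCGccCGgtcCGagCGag
Motifs of B lineage factors were searched in the 7 RefSeq promoters of members, including those not printed. The printed windows were searched as well, and no match was found there. Only exact matches to the letters were counted, so a promoter without a match may still hold a site in other letters. The EBF1 core CCCNNGGG (its own reverse complement) stood in the promoters of Cd22 and Cd81 and in 13.7% of all 32851 promoters of the table, the octamer ATGCAAAT on either strand in that of Blnk (1.74% of all), and the PU.1 motif GAGGAAGT on either strand in that of Cd72 (3.2% of all). In the members' promoters no searched motif overlapped another.

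Which members differed at the gene start was asked first, in promoters taken as 1 kb on either side of the outermost GENCODE gene start. Methylation was lower in B cells at 5 of 9 promoters, those of Cd79a, Cd79b, Cd22, Blk and Blnk, against 0.41% of all 20501 promoters tested, and higher at none, against 0.956% of all. A promoter was called where edgeR's quasi-likelihood test gave an adjusted p (Benjamini-Hochberg over all promoters) under 0.05 and the mean level differed by at least 20 percentage points. The median difference (B minus T) was -29.4 points over the 9 members and 0.97 points over all promoters.

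Cd79a, the signalling chain without which the receptor does not reach the surface, had the largest promoter difference of the 9. Its level was 8.36% in female and 12.7% in male B cells, and 68.8% in female and 71.4% in male T cells, over 40 CpGs. The difference was -59.6 points (adjusted p = 8.25e-69). Cd79b, its partner chain, was at 8.59% and 10.8% in B cells, but T cells reached only 40.7% and 37.9%, a difference of -29.6 points (adjusted p = 2.65e-21). Both chains were thus at a similar level in B cells, and they differed in the level of T cells.

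The adaptor Blnk was at 12.8% and 13.9% in B cells and at 57.1% and 56.1% in T cells (-43.2 points, adjusted p = 3.27e-36). The inhibitory coreceptor Cd22 was at 28.7% and 26.3% against 69.7% and 65.3% (-40.0 points, adjusted p = 1.42e-22). The kinase Blk was at 24.5% and 26.5% against 57.0% and 52.9% (-29.4 points, adjusted p = 1.48e-12). In each of these 5 genes both B cell libraries lay below both T cell libraries, and the differences within females and within males were at most 6.06 points apart.

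The other 4 promoters were low in both cell types. Cd72, the second inhibitory coreceptor, was at 4.46% and 5.93% in B cells and at 16.8% and 16.9% in T cells, a difference of -11.7 points that passed the test (adjusted p = 1.82e-10) but not the minimum of 20 points. Syk, the kinase that T cells also use early in their development, was at 0.494% and 0.897% against 2.54% and 1.87% (-1.51 points, adjusted p = 0.00179). Lyn was between 2.79% and 4.75% in the 4 libraries (-1.49 points, adjusted p = 0.184) and Cd81 between 2.23% and 4.22% (0.50 points, adjusted p = 0.687). For these 2 genes the difference did not pass the test. At Lyn both B cell libraries (2.79% and 3.47%) still lay below both T cell libraries (4.48% and 4.75%).

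The members fell into 2 groups by the CpG content of their promoters. The ratio of observed to expected CpGs was 0.165 to 0.333 in the promoters of Cd79a, Cd79b, Cd22, Cd72, Blk and Blnk, and 0.563 to 0.676 in those of Syk, Lyn and Cd81. Among all promoters tested, 1.01% of those under a ratio of 0.4 and 0.0162% of those at or above it were lower in B cells, a cut chosen after the members' values were seen. Of the members, 5 of 6 under the cut (all but Cd72) and none of 3 above it were called.

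**Figure D1:**
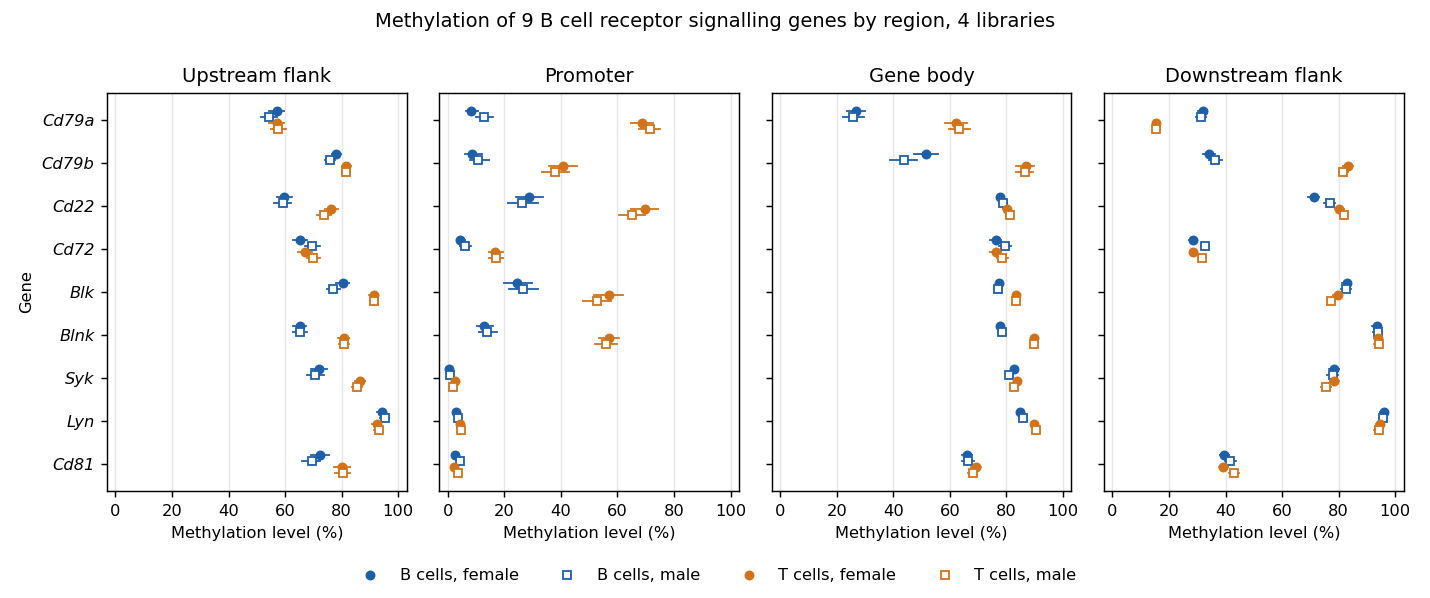
Methylation level (x axis, %) of the 9 genes (y axis) in the upstream flank, promoter, gene body and downstream flank, with 1 point for each of the 4 libraries (filled circles female, open squares male, blue B cells, orange T cells) and 95% Wilson intervals as lines. At the Cd79a promoter B cells sit at 8.36% and 12.7% and T cells at 68.8% and 71.4%, whereas the Syk, Lyn and Cd81 promoters lie under 5% in every library.

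The promoter calls depended on the window and on leaving out a library. With 500 bases on either side, Cd22 (-19.9 points) and Blk (-8.59 points) were no longer called. Blnk, at -20.1 points, was only just past the minimum there. Leaving out a library also took out the sex term and left 1 cell type with a single library, which was then assumed to vary like the other cell type. The differences stayed between -57.4 and -61.8 points for Cd79a and between -27.4 and -31.5 points for Blk. All 5 were called in such fits on the autosomes alone (added after seeing the data), but with X in the fit none was called without the female T cell library (adjusted p between 0.0556 for Cd79a and 0.164 for Blk) or without the male T cell library (0.0561 to 0.114), 2 without the male B cell library and 4 without the female B cell library.

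Levels close to single transcript starts showed detail that the promoter window hid. Within 250 bases of the Cd79a start, 13 CpGs were at 0.3% and 1.3% in B cells and at 59.8% and 64.2% in T cells. At Cd22 the outermost start, of transcript Cd22-206, was at 11.7% and 9.30% in B cells and at 25.7% and 22.1% in T cells, but the inner start of Cd22-201, 1314 bases further in, was at 3.4% and 5.6% in B cells and at 83.8% and 88.1% in T cells. The outermost Blnk start was at 18.0% and 8.70% in B cells and at 51.8% and 45.1% in T cells. The Blk start was close to unmethylated in both, with no methylated read among its 6 CpGs in B cells and 8.9% and 9.2% in T cells, so that the promoter difference of Blk lay in the sequence around it. At Syk the outermost start was at or below 0.931% in every library, and the start of transcript Syk-201, 13680 bases further in, was at 2.5% and 3.4% in B cells and 9.5% and 12.2% in T cells.

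Gene bodies, from 1 kb inside the start to the gene end, were lower in B cells at 2 of 9 members, against 0.123% of 20353 gene bodies lower and 1.31% higher in B cells. Both were the signalling chains. The body of Cd79a was at 26.7% and 25.7% in B cells and at 62.3% and 63.4% in T cells (-36.7 points, adjusted p = 5.34e-10 in edgeR's test), and that of Cd79b at 51.7% and 43.7% against 86.9% and 86.6% (-39.1 points, adjusted p = 3.14e-10). Another 3, longer genes passed the test with smaller differences, namely Blnk (-11.6 points), Blk (-6.21 points) and Lyn (-4.74 points), and none was higher in B cells, where 8702 of the 20353 bodies passed in either direction. The bodies of Cd22 (-2.44 points), Cd81 (-2.35), Syk (-1.45) and Cd72 (0.465) did not pass.

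The flanks differed between genes. No upstream flank (10 kb to 1 kb before the start) was called, against 0.117% of 21455 lower and 0.82% higher in B cells, but 6 of 9 passed the test with lower levels in B cells: Cd22 (-15.7 points), Blnk (-15.6), Syk (-14.6), Blk (-12.7), Cd81 (-9.52) and Cd79b (-4.66). Without the minimum difference 5388 of the 21455 passed in either direction. The flanks of Lyn (1.98 points), Cd79a (-1.65) and Cd72 (-0.983) did not. Counting only CpGs with at least 10 reads in every library brought Syk past the minimum (-21.3 points). Of the downstream flanks, the 10 kb after the gene end, 1 of 9 was called, against 0.0838% of 21491 lower and 0.712% higher in B cells. This was Cd79b, at 34.2% and 36.4% in B cells and at 83.3% and 81.7% in T cells (-47.2 points, adjusted p = 3.55e-72), a larger difference than at its promoter. The downstream flank of Cd79a went the other way, with 31.9% and 31.2% in B cells and 15.3% and 15.5% in T cells (16.1 points, adjusted p = 2.19e-21), under the minimum of 20 points. Most of that flank lies in the neighbouring gene Arhgef1, whose own promoter was low in both cell types (2.18% on average in B cells and 0.0904% in T cells). Cd22 (-7.08 points, adjusted p = 6.14e-05) and Blk (4.26 points, adjusted p = 0.0131) also passed the test downstream, as did 5656 of the 21491 flanks in either direction. The other 5 were between -0.453 points (Cd81) and 1.53 points (Lyn) and did not.

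**Figure D2:**
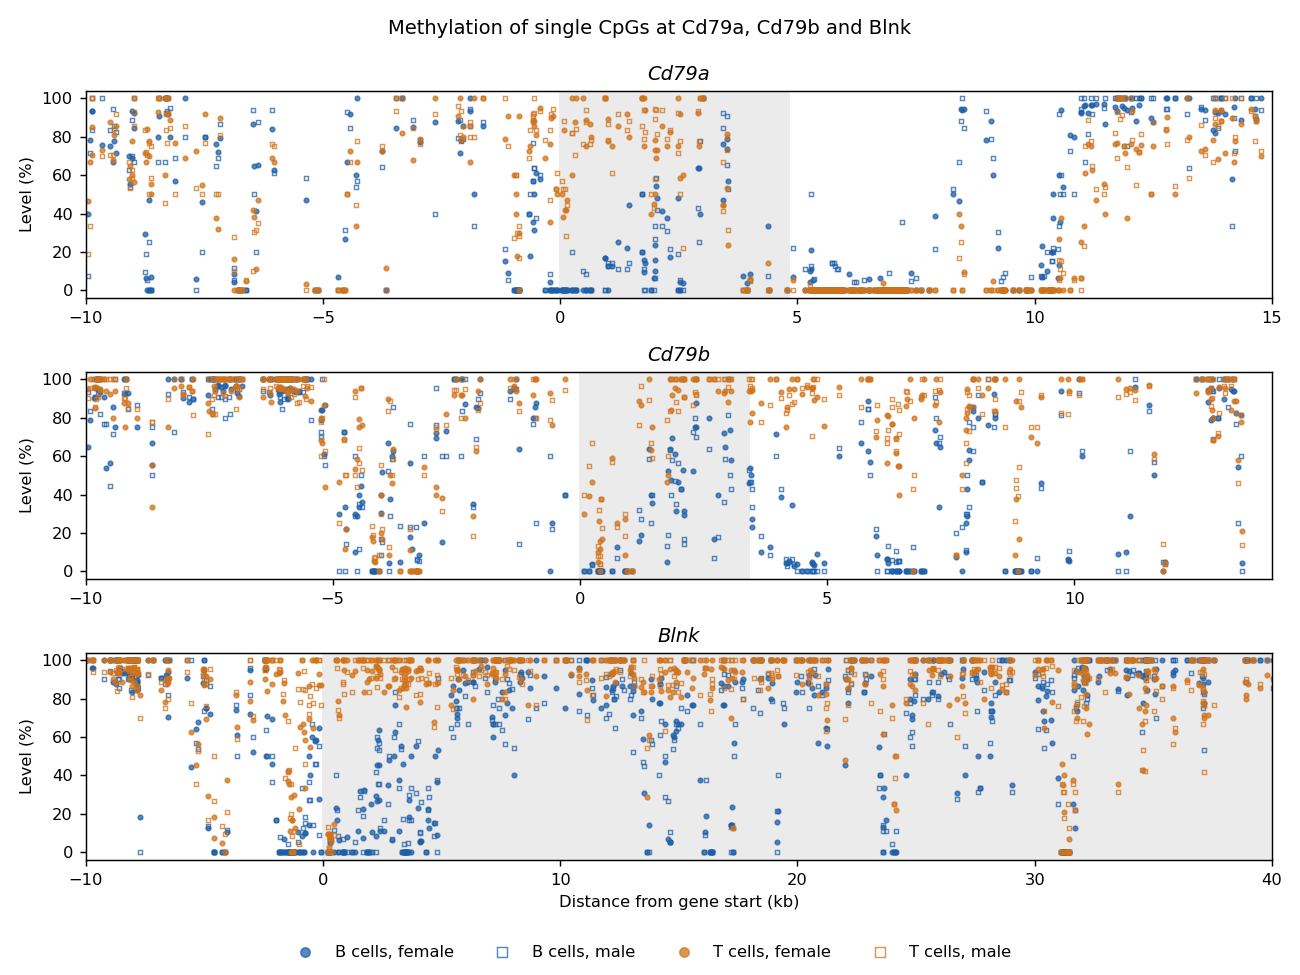
Level of each CpG (y axis, %) against distance from the gene start (x axis, kb) at Cd79a, Cd79b and Blnk in the 4 libraries (filled circles female, open squares male, blue B cells, orange T cells); the gene is shaded, and Blnk is drawn to 40 kb. B cells are near 0 across the Cd79a start and in short stretches past the 3′ end of Cd79b, where most T cell points are higher, and right of Cd79a both cell types are near 0 over the start of Arhgef1.

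The loci were then cut into 1-kb tiles to locate these differences. Of the 441 tiles tested in the 9 loci, 64 (14.5%) were lower in B cells, against 0.812% of 1530528 tiles over the autosomes and X, and 8 (1.81%) were higher, against 2.36%. All 72 had the same sign in both sexes, and 60 differed by at least 20 points in each sex. Since the mean of both sexes chose the tiles, this is a description and no separate support. By annotation 27 of the 64 lay in introns, 12 over exons, 18 upstream and 7 downstream of their gene. The lower tiles were spread over every locus: 15 of 74 at Blnk, 11 of 22 at Cd79b, 9 of 83 at Syk, 8 of 62 at Blk, 7 of 34 at Cd22, 6 of 90 at Lyn, 5 of 23 at Cd79a, 2 of 27 at Cd81 and 1 of 26 at Cd72.

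At Cd79b the called tiles ran from 0.739 kb before the start to 11.3 kb after it. The tile with the largest difference was centred 4.26 kb from the start, in intergenic sequence, with 9.71% and 6.25% in B cells and 94.7% and 90.5% in T cells (-84.7 points, adjusted p = 2.16e-118). At Blnk the tile centred 1.03 kb inside the start was at 5.14% and 11.6% in B cells and at 94.6% and 89.3% in T cells (-83.6 points, adjusted p = 3.55e-85). Further Blnk tiles centred 16.0 and 24.0 kb into the gene, both intronic, differed by -63.3 and -62.7 points. The largest tile differences of Cd79a (-73.2 points, 1.12 kb inside the start, in an intron) and Cd22 (-69.1 points, 0.841 kb inside the outermost start) overlapped their promoter windows. At Blk it was upstream, centred 2.46 kb before the start, with 42.5% and 25.2% in B cells and 98.1% and 95.7% in T cells (-63.1 points, adjusted p = 2.26e-30).

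The genes with promoters low in both cell types had tiles that differed too. In Lyn the tile centred 1.39 kb inside the start was at 13.5% and 13.8% in B cells and at 65.4% and 62.9% in T cells (-50.5 points, adjusted p = 7.23e-35), directly behind an unmethylated start. In Syk the intronic tile centred 17.3 kb from the start was at 16.9% and 14.3% against 60.0% and 65.3% (-47.1 points, adjusted p = 2.45e-13). In Cd81 (-30.5 points, upstream within the overlapping gene R74862) and Cd72 (-27.2 points, 0.873 kb before the start) the tiles with the largest difference were upstream of the gene. Under limma those of Cd72 (adjusted p = 0.113) and Cd81 (adjusted p = 0.0633) were not called, and without the male B cell library that of Cd72 was not (adjusted p = 0.0513 with X in the fit). These 2 genes thus had the smallest tile differences of the 9.

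**Figure D3:**
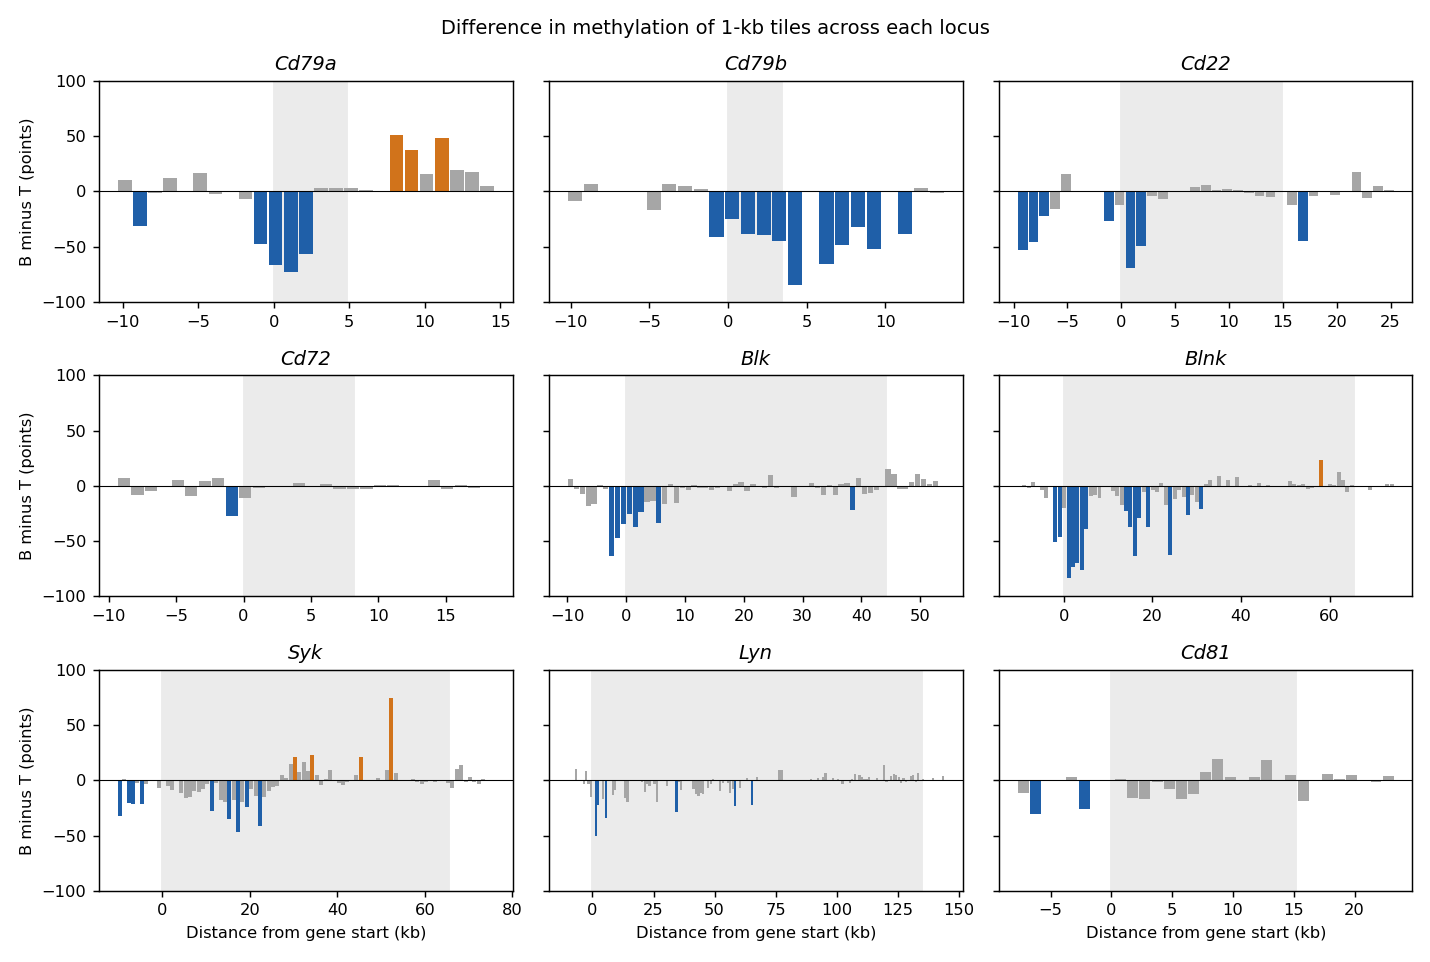
Difference in methylation between B and T cells (y axis, percentage points, mean of both sexes) of each tested 1-kb tile against distance from the gene start (x axis, kb) in the 9 loci, with the gene shaded. Blue bars are tiles called lower in B cells (64 tiles), orange bars tiles called higher (8 tiles) and grey bars tiles not called.

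The 8 tiles higher in B cells lay in 3 loci. Syk held 4, all intronic, and the one centred 52.3 kb from its start was at 88.4% and 83.8% in B cells and at 9.48% and 13.2% in T cells (74.8 points, adjusted p = 3.13e-43). Thus the stretch low in T cells and the tiles low in B cells lay at different places in the same gene. The other 3 Syk tiles differed by 21.3 to 22.7 points. Cd79a held 3, all inside Arhgef1, of which the one centred 8.12 kb from the Cd79a start was at 58.1% and 59.6% in B cells and at 9.6% and 6.17% in T cells (51.0 points, adjusted p = 4.12e-20). Blnk held 1, over an exon 58.0 kb from the start (23.4 points, adjusted p = 1.30e-07), which was not called under limma (adjusted p = 0.116), with at least 10 reads at every CpG (19.2 points) or without the female T cell library (16.7 points).

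**Figure D4:**
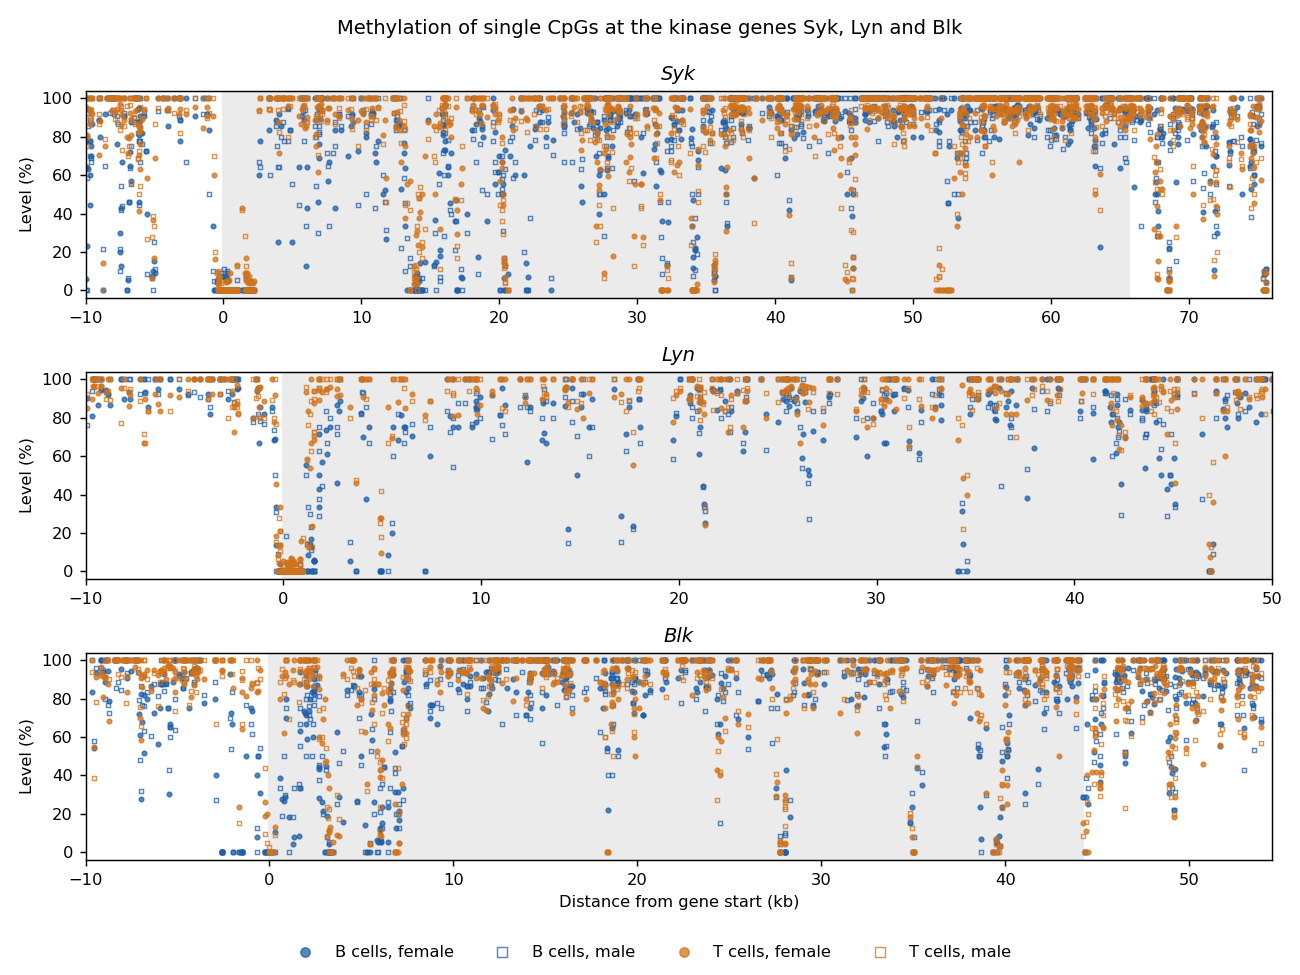
Level of each CpG (y axis, %) against distance from the gene start (x axis, kb) at the kinase genes Syk, Lyn and Blk in the 4 libraries (filled circles female, open squares male, blue B cells, orange T cells); the gene is shaded, and Lyn is drawn to 50 kb. In Syk the T cell points drop to near 0 at about 52 kb while B cell points stay high, and in Lyn at 1.2 to 1.8 kb most T cell points lie above the B cell points.

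Single CpGs gave the same picture. CpGs lower in B cells by at least 50 points in both sexes made up 293 of 5640 (5.20%) in the 9 loci, against 0.255% of all CpGs listed in the 4 libraries, and CpGs higher in B cells made up 28 (0.496%), against 0.643%. Most were at Blnk (93), Cd79b (56), Cd79a (42) and Cd22 (32). Cd79a (11) and Syk (12) held most of those higher in B cells. At Cd79b 18.3% of the listed CpGs were lower in B cells by this measure, the highest share of the 9 loci.

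Low methylation came in stretches, taken as at least 4 consecutive CpGs under 50% in the summed reads of a cell type with no gap over 1 kb. Of 73 stretches low in B cells in the 9 loci, 31 (42.5%) were at 50% or more in T cells, against 10.9% of such stretches on the autosomes and X, and of 47 stretches low in T cells 2 (4.26%) were at 50% or more in B cells, against 20%. Since the level itself chose the stretches, these shares are a description. The share for T cells rests on 2 stretches and moved with the settings. It was 6 of 40 with a cut of 30%, 6 of 59 with at least 3 CpGs and 1 of 32 with at least 6. Blnk held 9 of the 31, Cd79b 6, Cd79a 5, Blk 4, and Cd72 none. The Cd79a start lay in a stretch of 1767 bases and 30 CpGs at 3.8% and 3.6% in B cells and 71.2% and 74.2% in T cells. The Blnk start lay in one of 2359 bases and 33 CpGs (8.3% and 10.8% against 67.4% and 65.98%), followed by others inside the gene, among them one of 27 CpGs between 3.3 and 4.8 kb at 13.3% and 12.1% in B cells and 90.9% and 89.8% in T cells. Past the Cd79b end lay 5 such stretches between 3.5 and 9.3 kb from the start, among them one of 20 CpGs at 1.7% and 4.3% in B cells and 72.5% and 80.1% in T cells. Both stretches low in T cells alone were in Syk, at 51.7 to 52.7 kb.

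The starts of Syk, Lyn, Cd81 and Cd72, and in shorter stretches those of Blk and Cd22, were low in both cell types. The stretches spanned 2951 bases and 112 CpGs at Syk, where the level was at most 2.8% in any library, 1354 bases and 93 CpGs at Lyn (at most 2.1%) and 1408 bases and 95 CpGs at Cd81 (at most 3.0%). In Lyn a second stretch followed at 1.2 to 1.8 kb, with 13 CpGs at 11.05% and 10.7% in B cells and at 72.4% and 69.4% in T cells. The Cd72 start lay in 51 CpGs at 2.4% and 3.9% in B cells and at 11.9% and 12.5% in T cells. At Blk 7 CpGs around the start were at 1.4% and 0% in B cells and at 9.4% and 9.2% in T cells, and at Cd22 6 CpGs were at 0% and 3.2% in B cells and at 9.5% and 10.6% in T cells.

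B minus T was compared between the sexes mainly by size, since each cell type and sex had 1 library. The difference between the sexes was at most 6.06 points among the 9 promoters (Blk), 7.65 points among the gene bodies (Cd79b) and 23.3 points among the tiles (Syk). An edgeR fit with this contrast in place of the sex term, so that any difference between the sexes counted as spread, called 0 of 20501 promoters (460 at an unadjusted p under 0.05) and 120 of 1530528 tiles (66775), with no member region or member tile among them. With so little left to estimate the spread, such a null does not show that B minus T was equal in females and males.

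The other genes of the pathway did not share a direction. Of 22 further genes (activators and adaptors, coreceptors and inhibitors), 3 promoters were lower in B cells and 2 higher, against 0.41% and 0.956% of all promoters. The median difference was -0.827 points. The lower ones were Siglecg, an inhibitory lectin (2.54% and 3.75% in B cells, 49.0% and 50% in T cells, -46.3 points), Dok3, an inhibitory adaptor (-30.3 points), and Btk, the kinase that Blnk recruits (-25.6 points). Btk is on X, where females carry an inactive copy, and was at 56.1% in female and 18.2% in male B cells and at 67.4% and 58.1% in T cells. The higher ones were Ptpn6, the phosphatase recruited by Cd22 and Cd72 (50.1% and 50.3% in B cells, 22.0% and 22.2% in T cells, 28.1 points), and Pik3cd, a phosphoinositide kinase subunit (27.0 points). Among the 17 not called were Ptprc (19.2 points) and Bank1 (-14.2 points). Ptprc, the phosphatase CD45, was called higher in B cells in its gene body (31.7 points) and upstream flank (31.1 points). Other calls in these 22 genes included the Dok3 body (-24.8 points), the upstream flank of the adaptor Pik3ap1 (-20.3 points) and the downstream flank of Nfatc1 (22.6 points).

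Counterparts that do the same tasks behind the T cell receptor went the other way. Promoters were called higher in B cells for 5 of 6, against 0.956% of all promoters. These were Zap70, the relative of Syk (68.0 points), Lcp2, the relative of Blnk (25.4), Lck, a Src family kinase (63.3), and the receptor chains Cd3e (84.2) and Cd247 (84.9). Both chains were also among the T cell markers above. Fyn, which lymphocytes of both kinds express, was also higher in B cells and passed the test (6.82 points, adjusted p = 3.51e-07 in edgeR's test) but not the minimum of 20 points. Syk and Zap70 thus differed in form: the Zap70 promoter was at 84.8% and 88.4% in B cells and at 20.2% and 17.0% in T cells, whereas the Syk promoter was below 3% in all 4 libraries.

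**Figure D5:**
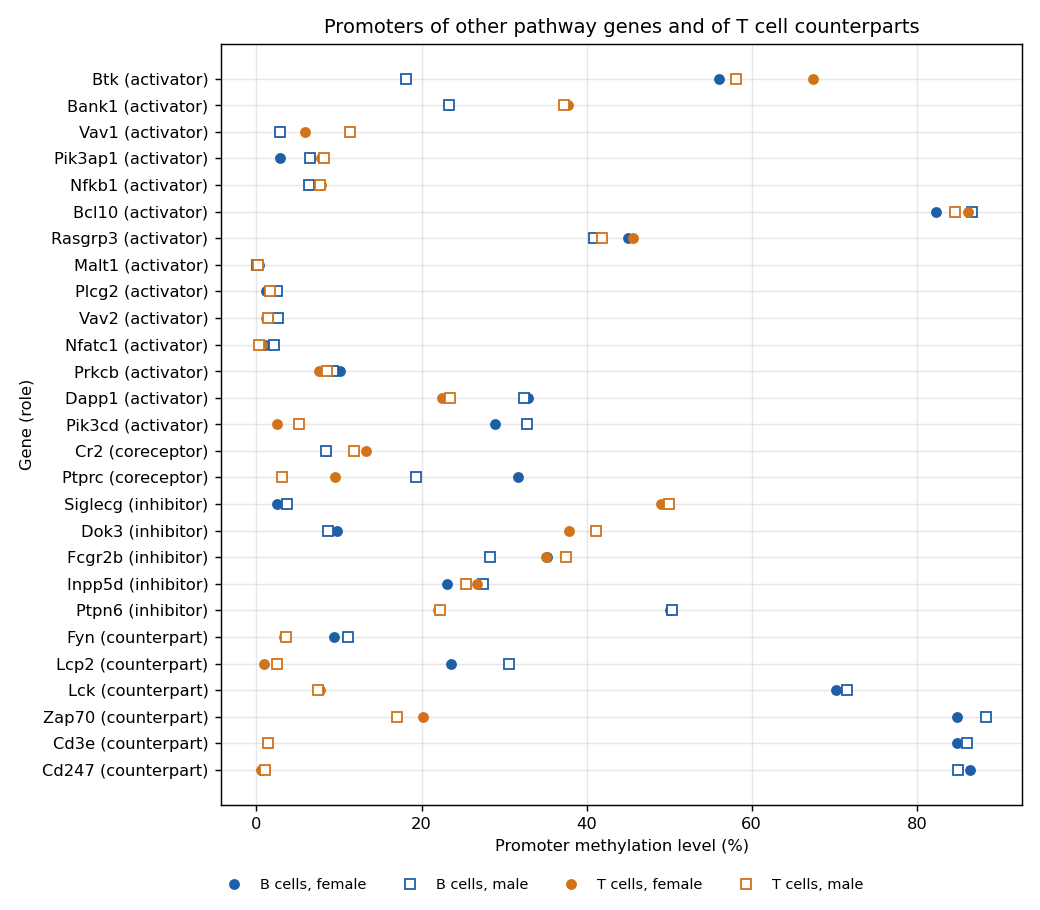
Promoter methylation level (x axis, %) of 21 other genes of the pathway and of 6 T cell counterparts (y axis, with the role of each) in the 4 libraries (filled circles female, open squares male, blue B cells, orange T cells). Siglecg, Dok3 and Btk were called lower in B cells, and Ptpn6 and Pik3cd higher. Of the 6 counterparts 5 were called higher in B cells, and Fyn was higher by 6.82 points without a call.

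Genes with a pattern like that of Cd79a were sought over the promoter and gene body levels in the 4 libraries, that is 8 values for each of 19540 other genes. The nearest by Euclidean distance were Mzb1, an endoplasmic reticulum protein of B cells (30 points), Spib, an Ets factor of B cells (32.8), Tlr9, the receptor for unmethylated DNA (47.3), Fam129c (49.0) and Il12a (50.5). Mzb1 was at 26.5% in B cells and 75.3% in T cells in its promoter and at 20.7% and 72.7% in its body, as means of both sexes. Il12a was less alike, with 30% and 42.5% in its promoter. Cd79b itself was 63.3 points away, farther than the genes named here but still among the nearest of the 19540.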

How the data were processed

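The authors deposited 1 file per group from whole genome oxidative bisulfite sequencing, listing each CpG covered by at least 5 reads. The deposited methylation level is a fraction of the reads at the CpG, rounded up to 3 decimals, and the deposited read count is a whole number. The submitters' processing notes name mm10, Trim Galore, FastQC and Bismark 0.13.1, with no role or order. The caller's settings and removal of duplicates are not given in the sources used here.

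Methylated reads were recovered as whole numbers from fraction and count (100% of levels in each library). All 20645953 listed positions on the autosomes and X fell on a CG of GRCm38. Reads were summed over the 18684786 CpGs listed in all 4 libraries, in promoters, gene bodies, flanks and 1-kb tiles with at least 5 such CpGs and 20 reads in every library. Methylated and unmethylated counts were fitted with edgeR 4.0.16 (glmQLFit, glmQLFTest) in R 4.3.3, with terms for library, methylation, cell type and sex, with the common dispersion from at most 20000 regions. limma 3.58.1 was an alternative. Members' promoters held 262 to 2278 reads per library, summed over CpGs, so that a read crossing several CpGs counted at each. Their 95% Wilson intervals were at most 10.6 points wide. The intervals treat these counts as independent and hold no spread between libraries. Neighbouring CpGs share reads and no molecular identifiers mark duplicates, so the intervals may be too narrow even for counting error.

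Members and lists were chosen with earlier results of these data known. Named are all members in every region kind, the called tile with the largest difference in each direction in each locus, pathway promoters called and the 3 largest among the others, of which 1 is not reported here, and the 5 genes nearest Cd79a; other tiles, stretches and starts were chosen after their values were seen. In pooled cells an intermediate level in all cells and full methylation in some of them cannot be told apart. The purity of the sorted cells was not measured here, and the marker promoters do not show whether other cells were mixed into both cell types.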

Additional observations from a re-analysis of the deposited data

How the results depend on the processing

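With 1 library left out, and with it the sex term, 35 to 274 promoters were called, and 0 to 5 members against 5. This range joins fits with X and fits on the autosomes alone. The fits with X gave its lower end, 35, against 280 with all libraries. Each of them called fewer promoters and fewer members than with all libraries. The fits on the autosomes alone, added after seeing the data, gave its upper end, 274, against 272 with all libraries. Each of these called all 5 members. In every fit with a library left out, 1 cell type has a single library, assumed to vary like the other. A window of 500 bases left 3 members. Without a minimum difference 4070 promoters, 8702 gene bodies, 5388 upstream and 5656 downstream flanks passed, with 5, 6 and 4 members in the last 3 kinds, and with a minimum of 10 points 799, 1130, 1014 and 868 passed, with 4 members upstream and 2 downstream. At least 10 reads per CpG brought 1 upstream flank past the minimum and turned the sign of small differences, to -1.01 points (Cd72 body), 1.90 (Cd72 upstream), -0.622 (Cd72 downstream) and 0.531 (Blnk downstream). Leaving out a library turned the sign of the Cd81 promoter (-0.264 to 1.26 points), the Cd72 body (-1.14 to 2.07), upstream (-3.14 to 1.17) and downstream flank (-1.79 to 2.63), the Syk downstream flank (-0.265 to 2.61) and the Cd81 downstream flank (-2.31 to 1.40), none of which was called.

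Over all tiles 24206 were called at 2 kb, 142570 without a minimum and 30670 by limma, against 48487. In the 9 loci the lower tiles numbered 32 at 2 kb and 122 without a minimum, and the higher ones 13 at 500 bases, 4 at 2 kb, 37 without a minimum and 5 by limma. Of the 72 tiles called, limma called 53 and the fits with a library left out 64 to 69. On the autosomes alone, a setting added after seeing the data, the fit of B minus T between the sexes called 1 promoter, 1 downstream flank and 70 tiles, against 0, 0 and 120 with X. A difference of 30 points gave 111593 lower and 258471 higher CpGs over all, and 470 and 78 in the loci, where 190 were lower with 10 reads per CpG. Stretches low in B cells alone numbered 20 with at least 6 CpGs, and those low in T cells alone 6 under 30%, 1 with at least 6 CpGs and 6 with at least 3. The cause of these changes was not tested. With medians of 14 to 17 reads, depth limits the level of a single CpG.
The groups share no replicate numbers, and sex, the one factor that pairs the libraries, was a term of the fit; without it 5 members' promoters were called, as with it.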
